A study of Oidiodendron maius Zn with 6 samples.

Results

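Oidiodendron maius is a soil ascomycete that lives as an ericoid mycorrhizal partner of plants such as heathers and blueberries. Transcript levels of its free-living mycelium on peat were set against those on bovine serum albumin (BSA). By the labelled carbon source, 2 libraries were taken for peat and 2 for BSA, so that 4 of the 6 libraries of the series were compared. The remaining 2, from glucose, took part in the fit and are given as levels only. Every culture was of strain Zn, had no host plant and grew for 45 days on cellulose membranes laid over agar plates of modified Melin-Norkrans medium at pH 4.7. Peat plates carried about 10 g dry weight of peat, BSA plates 0.1 g of BSA per litre and glucose plates 1 g of glucose per litre. The basal recipe also lists glucose and an ammonium phosphate, and the labels leave unstated whether plates with peat or BSA contained them too. Kind and amount of the substrate therefore differ together and cannot be told apart.

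Ericoid mycorrhizal fungi live in acid, organic soils, where most nitrogen and carbon is bound in plant and microbial remains. They are known for secreting enzymes that act on plant cell walls, phenolic compounds and proteins. Peat is partly decayed plant matter that holds polysaccharides, lignin-derived phenolics and organic nitrogen, whereas BSA is a single soluble animal protein that peptidases must cleave before uptake. The deposited tables identify 16703 gene models by protein IDs of the Joint Genome Institute (JGI) annotation Oidma1 and do not pair them with gene names or products. No role can therefore be given to any model below, 0 of 12 gene lists written by product name could be filled, and the labelled tissue could not be checked against marker genes.

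Each condition had 1 library of paired reads and 1 of single reads, all of 75 nt. Peat had 1043870 gene reads in its paired-read library and BSA 893061, while the single-read library of peat had 24690601 and that of BSA 20008329. In the single-read libraries, 14727 models had at least 10 reads on peat and 14482 on BSA. The unique reads of the libraries of a condition deviated from each other by 1.06 times the variance of sampling alone, after removal of a layout effect shared by peat and BSA (10482 models). The value was 45.6 when the single-read libraries of peat and BSA were exchanged (10617 models). Peat and BSA thus each counted as a single sample (n = 1), and nothing in the labels says whether they came from separate cultures. No difference below has a replicate check, no p is given for a model, and every interval covers counting error only.

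Most gene models had nearly the same level on peat and on BSA. Levels are in CPM, counts of reads relative to the scaled library size, and 8366 models reached 20 CPM in at least 1 of the conditions as the mean of its 2 libraries. From the 25th to the 75th percentile of these models, the log2 fold change of peat over BSA ran from -0.20 to 0.19, and 67.2% of the models differed by less than 1.25-fold. At least 2-fold higher on peat were 302 models (3.61%), and 287 (3.43%) were at least 2-fold lower. At the 4-fold limit, 63 models (0.753%) were higher and 78 (0.932%) lower on peat. With library totals as scaling, the 2-fold counts were 348 higher and 255 lower and the 4-fold counts 70 higher and 71 lower, over the same 8366 models. Of the 141 models at the 4-fold limit without that change of scaling (63 higher and 78 lower), 39 lay between 4-fold and 5-fold.

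The largest differences were more numerous on the lower side. At 8-fold or more, 27 models (0.323%) were higher and 37 (0.442%) lower on peat. At 16-fold or more, 8 models were higher and 20 lower on peat, also with library totals. At 64-fold or more, 4 were higher and 13 lower, and at 128-fold or more 2 were higher (3 with library totals) and 10 lower. Of the 63 models higher on peat, 3 stood under 1 CPM on BSA, and of the 78 lower on peat 7 stood under 1 CPM on peat. These counts describe 1 sample of each condition.

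**Figure D1:**
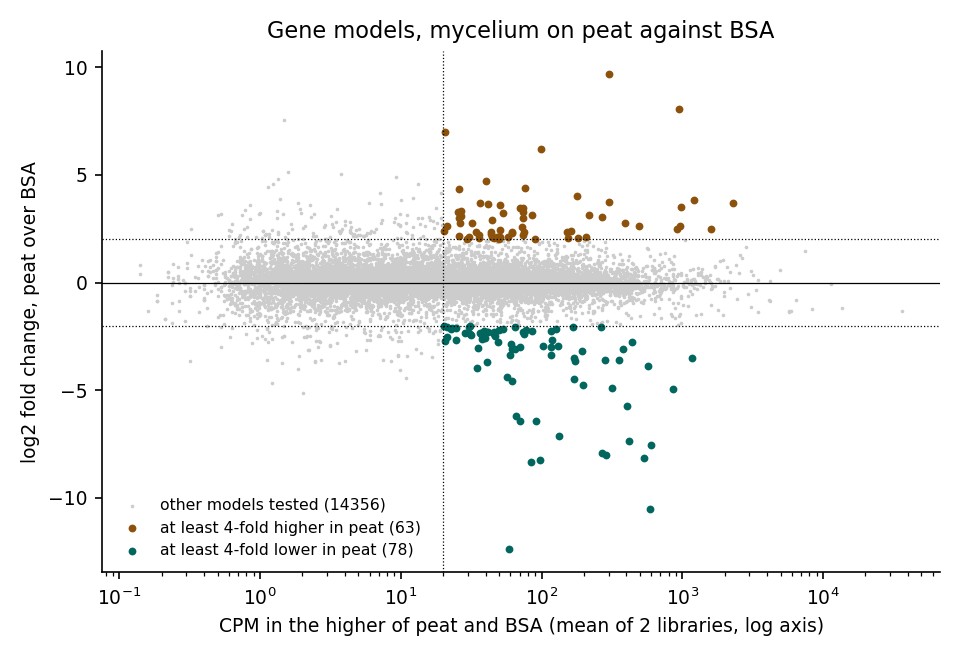
Each point is 1 of the 14497 gene models tested. The horizontal axis is its CPM in the higher of peat and BSA on a log scale and the vertical axis its fitted log2 fold change of peat over BSA, with dotted lines at 20 CPM and at 4-fold. The 63 models higher and the 78 lower on peat are coloured, and the higher side reaches 9.66. The lowest point belongs to a model with 0 reads on peat, whose fitted value is no bound, and the next lies at -10.53.

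Above 200 CPM, the share of models that differed grew with the number of reads. Of the 1649 models with 100 to 200 CPM in the higher condition, 5.82% differed at least 2-fold. This share was 8.93% for 200 to 500 CPM (784 models), 16.7% for 500 to 1000 CPM (168 models) and 25% for over 1000 CPM (100 models). In the class over 1000 CPM, 9 models exceeded a 2-fold difference upwards and 16 downwards on peat. With library totals in place of the scaling factors these counts were 10 and 13, and the share was 23%. The class of 20 to 50 CPM stood at 7.25% (3202 models) and that of 50 to 100 CPM at 5.6% (2463 models). Because the higher condition sets the class, a differing model is placed above an unchanged one of the same mean level. The classes themselves can thus raise the share at the top, and how much of the rise this makes up was not tested.

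**Figure D2:**
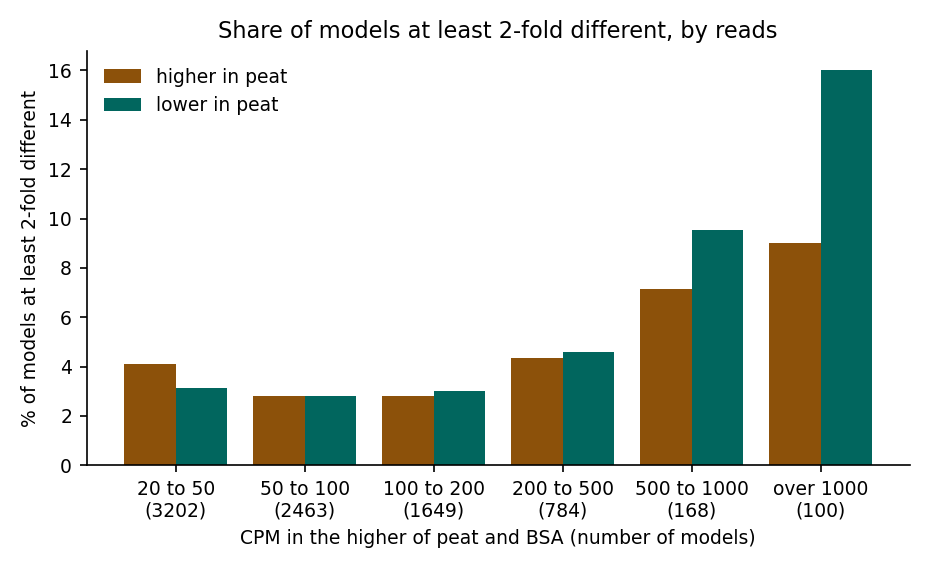
Bars give the percentage of models at least 2-fold higher (brown) and at least 2-fold lower (green) on peat than on BSA. Classes on the horizontal axis are by CPM in the higher condition, with the number of models in parentheses. This choice of classes itself favours differing models in the higher ones. Both bars are tallest for models over 1000 CPM, with 9 and 16 of 100 models.

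The 2 models with the largest difference in each direction were close to silent in 1 of the conditions. Protein ID 172609 (595 nt) had 314 CPM in the paired-read and 294 CPM in the single-read library of peat, against 0 and 0.37 CPM in those of BSA. Summed over libraries, 7607 reads on peat stood against 7 on BSA, all in its single-read library, a ratio of 832 with a 95% exact interval of 404 to 2071. Glucose libraries held 1.98 and 1.5 CPM of this model. The libraries of peat thus lay far above all 4 others.

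Protein ID 106753 (1840 nt) had 942 CPM in the paired-read and 943 CPM in the single-read library of peat, against 1.16 and 3.6 CPM in those of BSA. The paired-read value of BSA rests on 1 read. Its level on peat was 270.3-fold that on BSA by summed reads, with an interval of 213 to 347. The single-read libraries alone gave a ratio of 262, and the paired-read libraries alone 809, from that 1 read. With 69 reads on BSA in all, 106753 was better measured than 172609.

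On the lower side, protein ID 181057 (1741 nt) had 1.92 CPM in the paired-read and 0.323 CPM in the single-read library of peat, against 595 and 587 CPM in those of BSA. These values come from 2 and 8 reads on peat and from 511 and 11097 on BSA. The ratio was 1817-fold in the single-read libraries and 309-fold in the paired-read libraries, the second from 2 reads. Glucose, at 46.6 and 57 CPM, lay between peat and BSA.

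Protein ID 35134 (1473 nt) had 0 reads in both libraries of peat, against 61.7 CPM in the paired-read and 56 CPM in the single-read library of BSA. With 3 reads over the libraries of peat together, the limit that a count of 0 allows, its level was at least 484-fold lower on peat. It was the only model with 0 reads on peat and at least 10 reads on BSA. In the other direction, 9 models had 0 reads on BSA and at least 10 on peat, the highest with 51 reads. Complete absence in 1 condition was thus rare at this depth.

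A group of 4 models with neighbouring IDs, singled out after their values were seen, was lower on peat throughout. In numeric order of the tested IDs, 20072, 20075, 20077 and 20079 follow each other, and they were the only run of at least 3 models that were all at least 4-fold different in 1 direction. ID 20075 (1291 nt) had 4.81 CPM in the paired-read and 3.03 CPM in the single-read library of peat, against 617 and 572 CPM in those of BSA. Its level was 185-fold lower on peat (interval 149 to 234). ID 20077 (718 nt) had 0 and 2.66 CPM on peat, against 416 and 419 CPM on BSA. ID 20072 (606 nt) had 0 and 0.283 CPM on peat, against 78 and 90.9 CPM on BSA. ID 20079 (1102 nt) had 0 and 0.888 CPM on peat, against 68.7 and 63.9 CPM on BSA. For all 4 models both libraries of peat lay far below both of BSA, and glucose was on the side of BSA, for 20075 with 485 and 457 CPM.

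The models on either side of this run differed by less than 2-fold. ID 20069 had 64.5 and 72 CPM on peat, against 46.6 and 42.5 CPM on BSA, and ID 20080 had 6.73 and 6.82 CPM on peat, against 6.99 and 11.5 CPM on BSA. Numeric order of IDs is not a genome position, and positions of these models were not used here.

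**Figure D3:**
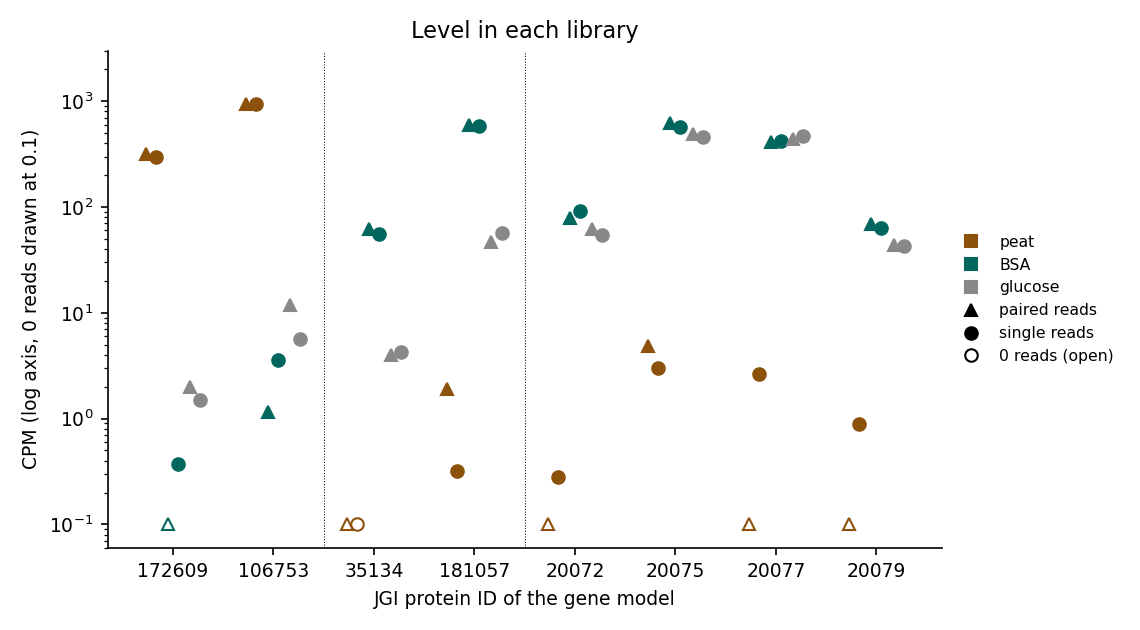
CPM on a log axis of the 2 models with the largest difference in each direction and of the run of 4 models with neighbouring IDs, in each library of peat (brown), BSA (green) and glucose (grey). Triangles are paired-read and circles single-read libraries, open symbols at 0.1 stand for 0 reads. The libraries of a condition lie close together except where a value rests on few reads, and in the run BSA and glucose lie together above peat.

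Shorter runs of neighbouring IDs were seen in both directions. At the 4-fold limit there were 2 pairs of neighbours higher on peat and 4 pairs lower on peat. At a 2-fold limit, chosen after the data were seen, runs of at least 3 models numbered 4 with 12 models higher on peat and 7 with 27 models lower on peat. The longest held 5 models, IDs 15941 to 15951, with log2 fold changes from -2.45 to -1.06. Another of the 7 lower runs, IDs 139570, 139572 and 139577, holds reads that match more than 1 model. On BSA, unique reads made up 91.4% of those of 139570, 24.7% of those of 139577 and none of those of 139572. Which models share these reads was not determined, so the members of this run may not all be separate measurements. Neighbours could also differ in direction. ID 56413 had 6.73 and 10.8 CPM on peat, against 125 and 108 CPM on BSA, while the next tested ID, 56425, had 51 and 49.8 CPM on peat, against 17.5 and 8.62 CPM on BSA.

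By number of reads, models at least 4-fold different made up a small part of what differed between the conditions. Reads equal to 14.4% of all gene reads would have to be moved between models to turn the BSA profile into that of peat. This value sums over the 14497 models tested, from shares averaged over the 2 libraries of a condition. Counting error adds to the sum, and how much was not tested. Gain and loss here are differences in the share of library totals, whereas folds use the scaling factors. Models at least 4-fold different, with 20 CPM or more in the higher condition, made up 8.65% of the gain and 7.35% of the loss on peat. Models at least 2-fold different, with no minimum CPM, made up 29.4% of the gain and 53.9% of the loss. The rest lay in models that differed by less than 2-fold. The 63 models higher on peat together took 1.39% of the peat single-read library (95% exact interval 1.386 to 1.395) and 0.159% of that of BSA (0.157 to 0.161). The 78 models lower on peat took 0.0984% of the peat single-read library (0.0972 to 0.0997) and 1.14% of that of BSA (1.135 to 1.144).

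A few models carried much of the loss, and these were singled out after their values were seen. Protein ID 208821 (852 nt) alone made up 13.8% of it. It took 1.49% of the paired-read and 1.46% of the single-read library of peat, against 3.46% and 3.46% of those of BSA. Of the glucose libraries it took 0.481% and 0.472%, less than on peat or BSA. Its level was 2.51-fold lower on peat (interval 2.5 to 2.52). Per length it was the highest of the tested models on both substrates, with deposited RPKM values of 17476 and 17140 on peat, against 40559 and 40555 on BSA. The 10 models with the largest losses made up 33.6% of the whole loss.

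The gain on peat was spread over more models, and the 10 largest made up 12.9% of it. Scaling by library totals, on which these shares rest, raised the log2 fold changes by a median of 0.0838. A large loss in a few models thus adds small gains in share to many others. How much of the spread comes from this was not tested. ID 18627 (1386 nt) had the largest gain, with 7187 CPM in the paired-read and 7733 CPM in the single-read library of peat, against 2553 and 2816 CPM in those of BSA. It was 2.75-fold higher on peat (2.72 to 2.78). ID 183593 (479 nt) came next, with 2391 and 2182 CPM on peat, against 163 and 173 CPM on BSA, a 12.7-fold difference (12.2 to 13.1). Of the 63 models higher on peat, 7 exceeded 500 CPM on peat, and of the 78 lower on peat 6 exceeded 500 CPM on BSA.

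Per length, the highest models were largely the same on both substrates. Of the 10 models with the highest mean RPKM on peat and the 10 highest on BSA, 9 were shared, and of the 100 highest 77 were shared. Among the 11 models in either top 10, 7 were at least 2-fold lower on peat and 0 at least 2-fold higher, also with library totals as scaling. The 7 include IDs 111751, 139572, 139577 and 139570, which hold reads that match more than 1 model, so they may not all be separate measurements. RPKM of such short models could also differ between layouts. ID 139577 (204 nt) had 18739 in the paired-read and 36907 in the single-read library of BSA. Among the 123 models in either top 100, 15 were higher and 16 lower on peat by 2-fold or more, or 17 and 15 with library totals. Over the 8366 models with at least 20 CPM, 3.61% were at least 2-fold higher and 3.43% lower on peat. Of the 100 models over 1000 CPM, 25% differed at least 2-fold. Taking the models of either list favours those that differ, and how much this adds was not tested.

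Part of the reads of these highest models were not unique to them. Reads that match more than 1 model made up 0.505% of the paired-read and 0.894% of the single-read library of peat, against 1.07% and 2.09% of those of BSA. IDs 111751, 139572, 139577 and 139570, which held the most such reads, took 93.6% of them on peat and 97.9% on BSA in the single-read libraries. They were 2.3-fold to 2.63-fold lower on peat, close to the 2.51-fold of 208821. ID 139570 (459 nt) had 91.7% unique reads on peat and 91.4% on BSA and was 2.3-fold lower on peat (2.29 to 2.32). IDs 111751 and 139572 had no unique read on either substrate, so their own levels are uncertain. By contrast, all reads of the 141 models at least 4-fold different were unique.

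Glucose levels are given beside those of peat and BSA. Among the 63 models higher on peat, the medians were 61.9 CPM on peat, 8.94 CPM on BSA and 19.5 CPM on glucose. Glucose was within 2-fold of peat for 17 of them, within 2-fold of BSA for 24 and within 2-fold of neither for 23. Among the 78 models lower on peat, the medians were 6.85 CPM on peat, 68 CPM on BSA and 34 CPM on glucose. Glucose was within 2-fold of peat for 18 of these, within 2-fold of BSA for 37 and within 2-fold of neither for 24. On the log scale glucose was nearer to BSA than to peat for 37 of the 63 and for 51 of the 78.

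Glucose lay between the other levels for 50 of the 63 models and for 56 of the 78. The models were chosen because peat and BSA differed, so an intermediate level on glucose is no separate finding. Glucose was higher than both for 5 models higher and 14 models lower on peat, and lower than both for 8 models of each kind.

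**Figure D4:**
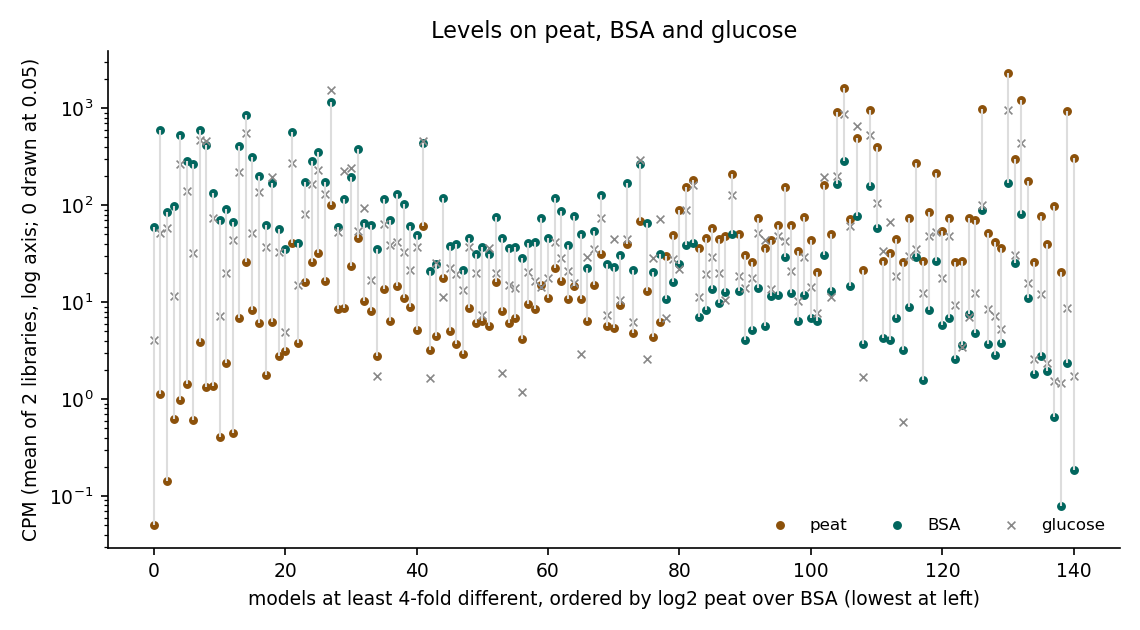
Each column is 1 of the 141 models at least 4-fold different, ordered from the lowest log2 fold change of peat over BSA at the left to the highest at the right, and the axis gives CPM as the mean of 2 libraries on a log scale. Brown points are peat, green points BSA and grey crosses glucose. Most crosses lie between the points, nearer to BSA for 51 of the 78 models at the left.

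Models picked in the single-read libraries alone had similar folds in the paired-read libraries. At least 4-fold and 20 CPM in the single-read libraries selected 66 models higher and 81 lower on peat. In the paired-read libraries, 52 of the 66 and 69 of the 81 were also at least 4-fold different, and all 66 and all 81 had the same direction. The median fold of the 66 was 6.7 in the single-read and 7.07 in the paired-read libraries. Picked in the paired-read libraries instead, 56 of 100 models higher and 67 of 93 lower on peat were at least 4-fold different in the single-read libraries. Median folds of models picked this way were smaller in the single-read libraries. They went from 6.14 to 4.31 for the 100 and from 6.66 to 5.71 for the 93. Because the layouts were counted as 1 sample, these values show how well the libraries were measured and not how cultures vary.

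For models over 500 CPM the log2 fold changes in the 2 layouts differed with a standard deviation of 0.21 (267 models), where counting error gives 0.15, and the fold changes themselves had a standard deviation of 1.32. For 100 to 500 CPM these values were 0.19, 0.19 and 0.62 (2430 models). Of the 141 models at least 4-fold different, 130 had reads in all 4 libraries, and in 113 of these the layouts gave folds within a factor of 2. These models were chosen by their fitted fold in the same libraries.

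**Figure D5:**
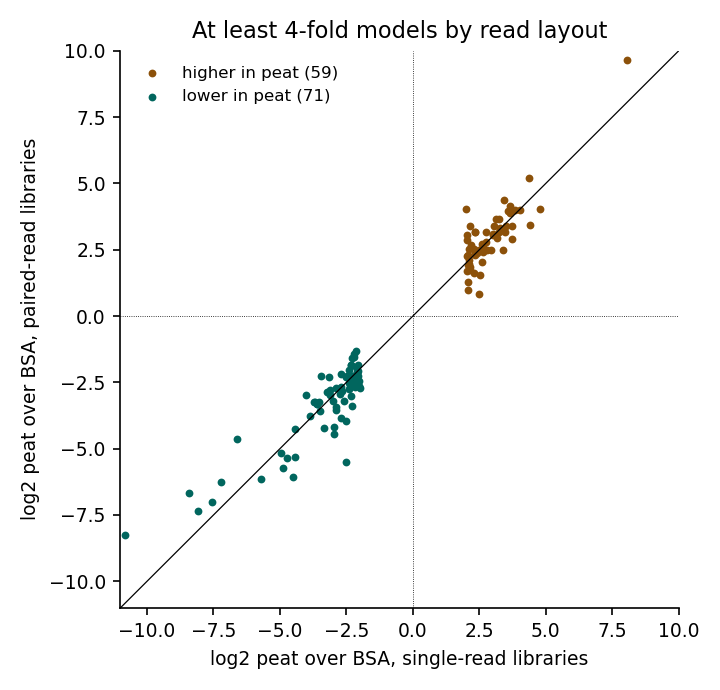
Log2 ratio of CPM of peat over BSA in the single-read libraries (horizontal) and in the paired-read libraries (vertical) for the 130 models at least 4-fold different that had reads in all 4 libraries. The line marks equal ratios. All points lie in the quadrants of equal direction, and 113 lie within a factor of 2 of the line. The models were chosen by their fitted fold in these same libraries, so the equal direction is no separate finding.

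The share of models at least 4-fold different was lower over 2000 nt than in the classes below. Of those with at least 20 CPM, models of up to 500 nt differed at least 4-fold in 1.77% (282 models), those of over 500 to 1000 nt in 1.83% (1917 models) and those of over 1000 to 2000 nt in 2% (3956 models). Models of over 2000 to 3000 nt did so in 0.927% (5 higher and 8 lower on peat of 1402 models). For models over 3000 nt the share was 1.11% (3 higher and 6 lower of 809 models). The last 2 shares rest on few differing models, and a trend with length was not tested. The median length was 1398 nt for the 63 models higher on peat, 1463 nt for the 78 lower on peat and 1458 nt for all 8366 models.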

How the data were processed

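The deposited tables hold whole-number counts of unique and total gene reads per Oidma1 gene model and the authors' RPKM, per the file headers. All 90022 deposited RPKM values above 0 gave, within 0.01 nt, 1 integer length for each model, so the authors scaled RPKM to the total gene reads of the library. The labels used here name no trimming, aligner or counter. Total gene reads of all 6 libraries were fitted with edgeR 4.0.16 (R 4.3.3), with TMM factors, filterByExpr (14497 models tested), terms for condition and layout, and 2 residual degrees of freedom. The read layout, stated in the labels, served as the block. CPM used TMM-scaled library sizes. Models were reported by size of change, from a fitted change of 4-fold upwards and, in the higher condition, a mean CPM of 20 or more. Folds of single models are ratios of normalised reads summed over the libraries of a condition, with exact (Clopper-Pearson) 95% intervals. The fit was tested on simulated data. Named by rule were the 2 higher and 2 lower models with the largest absolute fold change among models with an adjusted p under 0.05 and the same direction in both layouts. Comparison, lists and rules were chosen with earlier results of these data known. DESeq2 1.42.0 was an alternative. Paired-read and single-read libraries allow a share of up to 0.000287% and 1.22e-05% for a count of 0 on peat, and of up to 0.000336% and 1.5e-05% on BSA.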

Additional observations from a re-analysis of the deposited data

How the results depend on the processing

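Of 72 counts of models beyond 4-fold or 8-fold under the alternatives, 66 stayed within 1.5 times the reported count. The others came from stricter selection. With at least 10 reads required in every library, which removes models near 0 in 1 condition, 27 models were at least 4-fold higher and 31 lower on peat (6 and 12 at 8-fold). With a minimum of 50 CPM, 37 were higher and 50 lower. The edgeR quasi-likelihood test, whose error holds sequencing noise only, called 3546 models higher and 3549 lower on peat (24.5% each), a split of 50% that was 64.3% with library totals as scaling. It called 2072 higher and 1860 lower without the replicate block, and DESeq2 called 1054 and 1066; the causes were not tested. Leaving out 1 library gave 872 to 3601 calls higher and 801 to 3580 lower, the low values without a single-read library of peat (922 and 801) or of BSA (872 and 826). The same step gave 62 to 94 models at least 4-fold higher and 78 to 98 lower. None of the 56 values of the named models changed direction, and 4 lay outside the counting interval of the summed reads. These models were chosen for large differences in the same libraries. Without the BSA single-read library the log2 fold change of 106753 was 9.65, against 8.07 with it, and 172609 had 0 reads on BSA, so that its fitted value is no bound. Without the peat single-read library the log2 fold change of 181057 was -8.23, against -10.53 with it, and that of 106753 was 7.56. The fold of summed reads in place of the fitted fold, an alternative chosen after seeing the data, gave 63 higher and 78 lower. None of these settings supplies another culture.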
